A study of Mus musculus with 3 samples.

Results

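The genes described here encode 9 acute phase proteins of the mouse, namely the serum amyloid A genes Saa1, Saa2 and Saa3, haptoglobin (Hp), the orosomucoids Orm1 and Orm2, and the fibrinogen chains Fga, Fgb and Fgg. They were chosen by name, and all 9 had a row among the 19091 genes counted. Their counts of unique molecular identifiers (UMIs, each standing for 1 captured transcript) were followed in liver tissue of C57BL/6 mice by Drop-seq, a method in which cells are enclosed one by one in droplets with a barcoded bead. The library labelled sham control came from sham-operated livers taken after 1 day, although the protocol speaks only of an uninjured area. The libraries labelled IRE 1 dpi and IRE 7 dpi came from livers 1 and 7 days after irreversible electroporation, in which electric pulses kill the cells of a confined area (8 pulses of 50 ms, 1 s apart, at 75 V by the labels, where the methods of the paper give a lower voltage). For all groups tissue was taken with a 4 mm punch, digested with enzymes and freed of red blood cells, 3 livers were pooled for each library, and no age is given beyond adult. There was thus 1 library per condition, so that no value below has a replicate check, no test was made, and every interval is a 95% interval that covers counting error only.

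Acute phase proteins are plasma proteins whose synthesis in the liver changes within hours of injury or infection. Interleukin 6 and related cytokines act on hepatocytes through gp130 and STAT3, and interleukin 1 and tumor necrosis factor through NF-kB and C/EBP factors. The serum amyloid A proteins are the most inducible class in the mouse, whereas albumin and transthyretin are classical negative acute phase proteins. Not every member is a pure hepatocyte product, since Saa3 is known from macrophages and stromal cells and haptoglobin is also made and stored by developing neutrophils.

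The 3 serum amyloid A genes lie together on chromosome 7, and their promoters are shown because Saa1 and Saa2 differ from Saa3 in the levels described below. The 250 bases before each start site are shown 5′ to 3′ along the gene, from the RefSeq promoter table (GRCm38.p6). Saa1 spans chr7:46742981-46743230 on the minus strand, Saa2 chr7:46751583-46751832 on the plus strand and Saa3 chr7:46715677-46715926 on the minus strand. Capitals mark letters that match the C/EBP pattern TTNNGNAA on either strand.
Saa1: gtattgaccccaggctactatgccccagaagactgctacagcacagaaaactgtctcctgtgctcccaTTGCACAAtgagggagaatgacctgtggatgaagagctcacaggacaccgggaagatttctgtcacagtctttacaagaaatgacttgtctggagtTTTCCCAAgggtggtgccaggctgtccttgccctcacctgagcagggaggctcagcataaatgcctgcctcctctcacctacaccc
Saa2: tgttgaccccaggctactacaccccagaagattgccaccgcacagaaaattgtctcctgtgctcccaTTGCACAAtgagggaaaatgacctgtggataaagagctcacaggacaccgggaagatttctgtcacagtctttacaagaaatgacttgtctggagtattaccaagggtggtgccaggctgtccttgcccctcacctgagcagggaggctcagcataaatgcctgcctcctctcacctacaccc
Saa3: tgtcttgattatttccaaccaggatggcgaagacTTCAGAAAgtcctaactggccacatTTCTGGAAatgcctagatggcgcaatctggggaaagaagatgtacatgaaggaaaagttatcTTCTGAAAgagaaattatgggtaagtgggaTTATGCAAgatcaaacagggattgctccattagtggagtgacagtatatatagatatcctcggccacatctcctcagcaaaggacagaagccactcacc
Of the 231 words of 20 bases in the Saa1 window, 106 (45.9%) also stood in the Saa2 window, and 0 stood in the window of Saa3.

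The Saa1 window held 2 such matches, the Saa2 window 1 and the Saa3 window 4, while 36.8% of 32851 mouse promoters of the same length held at least 1. The NF-kB pattern (GGG, any 3 bases, TTCC), present in 4.65% of promoters, was in none of the 7 member promoters found, which were those of the 3 serum amyloid A genes, Orm2 and the 3 fibrinogen genes. The windows of Fga and Fgb each held 1 match to the STAT3 pattern TTCNNNGAA (7.02% of promoters), and the core of the interleukin 6 response element, CTGGGA (27.0% of promoters), stood once each in those of Fga, Fgb and Fgg. Patterns were searched on both strands, and matched letters are no evidence of binding.

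Barcodes with at least 200 detected genes were taken as cells. They numbered 10386 in the control library, 9253 at 1 dpi and 5624 at 7 dpi (25263 in all, with 8013800, 6107866 and 3058967 UMIs and a median of 595, 509 and 456.5 per cell). The protocol estimates 1000 cells behind the tagmented cDNA, while the paper speaks of a larger total. The 21068 barcodes under 200 genes carried 20.1 to 33.2% of the UMIs. They are used below as a picture of free RNA, the transcripts that leak from broken cells into every droplet, although at 7 dpi neutrophil markers took more of their UMIs (98930 CPM, or UMIs scaled to a library of 1000000) than of the cells' (43279 CPM). The libraries stood apart in make-up. Hepatocyte markers took 0.217% of cell UMIs in control, 3.63% at 1 dpi and 0.0472% at 7 dpi, so that a library labelled as adult liver cells held few hepatocyte transcripts. By markers, the control library held 325 neutrophil-like, 1056 monocyte-like and 420 mesenchymal-like barcodes, more of each than the library labelled 1 dpi (59, 44 and 8). The labels were kept as they stand. Mitochondrial genes took 20.5, 21.7 and 4.10% of the UMIs in the order control, 1 dpi and 7 dpi. Between 44 and 149 cell barcodes occurred in both libraries of a pair, and results that moved without them are given both ways.

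At the level of whole libraries the 9 genes split into 3 patterns. Fibrinogen and Orm1 were highest at 1 dpi, Saa3 and Hp were highest at 7 dpi, and Saa1 and Saa2 were highest in the control library. Orm2 also had its highest value in control, but the interval of its 1 dpi ratio (0.534 to 1.09) included no difference. Levels are given as CPM over the UMIs of the cells, and a gene was said to rise or fall when it passed 2-fold with at least 50 UMIs in both libraries together. All 9 members had that many in both comparisons with control. At 1 dpi 4 of 9 rose (Orm1, Fga, Fgb and Fgg), against 12.2% of 11357 genes, and 3 fell (Saa1, Saa2 and Saa3), against 5.86%. At 7 dpi 2 of 9 rose (Saa3 and Hp), against 8.79% of 10227 genes, and 7 fell, against 21.8%. In such sums, fewer cells of a type and less RNA per cell cannot be told apart.

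Saa1 and Saa2 encode the serum amyloid A proteins that circulate on high-density lipoprotein in the acute phase. Saa1 stood at 48.7 CPM in control (390 UMIs, interval 44.0 to 53.7), 12.9 CPM at 1 dpi (79 UMIs) and 10.1 CPM at 7 dpi (31 UMIs). Saa2 stood at 36.7 CPM in control (294 UMIs), 5.57 CPM at 1 dpi (34 UMIs) and 4.90 CPM at 7 dpi (15 UMIs). Both were thus highest in the library labelled control, and no interval of a later library reached it. Saa1 was 3.76-fold lower at 1 dpi (2.95 to 4.85) and Saa2 6.59-fold lower (4.61 to 9.70).

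Saa3, the serum amyloid A of macrophages and other extrahepatic cells, followed another course. It stood at 243 CPM in control (1950 UMIs), 4.91 CPM at 1 dpi (30 UMIs) and 964 CPM at 7 dpi (2950 UMIs). The 1 dpi library was 49.5-fold lower than control (34.6 to 73.6), and at 7 dpi Saa3 was 3.96 times the control level (3.74 to 4.20). Haptoglobin, which binds free hemoglobin, was the only one of the 9 genes whose level was above control in both later libraries, with 298 CPM in control (2392 UMIs), 465 CPM at 1 dpi (2840 UMIs) and 626 CPM at 7 dpi (1915 UMIs). Its ratio to control was 1.56 at 1 dpi (1.47 to 1.65) and 2.10 at 7 dpi (1.97 to 2.23). The latter was 1.74 when mitochondrial genes were left out of the total and 1.70 without neutrophil-like and monocyte-like barcodes, both under 2-fold.

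The orosomucoids are lipocalin-type carriers of plasma and differed from each other. Orm1 stood at 39.3 CPM in control (315 UMIs), 245 CPM at 1 dpi (1495 UMIs) and 7.52 CPM at 7 dpi (23 UMIs), 6.23 times the control level at 1 dpi (5.51 to 7.05). Orm2 stood at 11.1 CPM in control (89 UMIs) and 8.51 CPM at 1 dpi (52 UMIs), a ratio of 0.767 whose interval (0.534 to 1.09) included no difference. At 7 dpi Orm2 had 0 UMIs in the cells, which is at least 11.3-fold lower than control when 3 counts are set as the floor.

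Fga, Fgb and Fgg encode the 3 chains of fibrinogen, the clotting protein that is assembled and secreted by hepatocytes. Fga stood at 51.9 CPM in control, 348 CPM at 1 dpi and 7.19 CPM at 7 dpi. Fgb stood at 163 CPM in control, 1128 CPM at 1 dpi and 25.8 CPM at 7 dpi. Fgg stood at 90.1 CPM in control, 522 CPM at 1 dpi and 9.48 CPM at 7 dpi. The order of the libraries was the same for each chain, and their sum at 1 dpi was 6.56 times the control level (6.28 to 6.85). At 7 dpi the sum was 7.17-fold lower than control (6.01 to 8.62). The 20 hepatocyte markers moved with these genes, since all 20 rose at 1 dpi with a median ratio of 18.8, against a median of 1.03 over all genes tested. Of all genes 12.2% rose at 1 dpi.

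**Figure D1:**
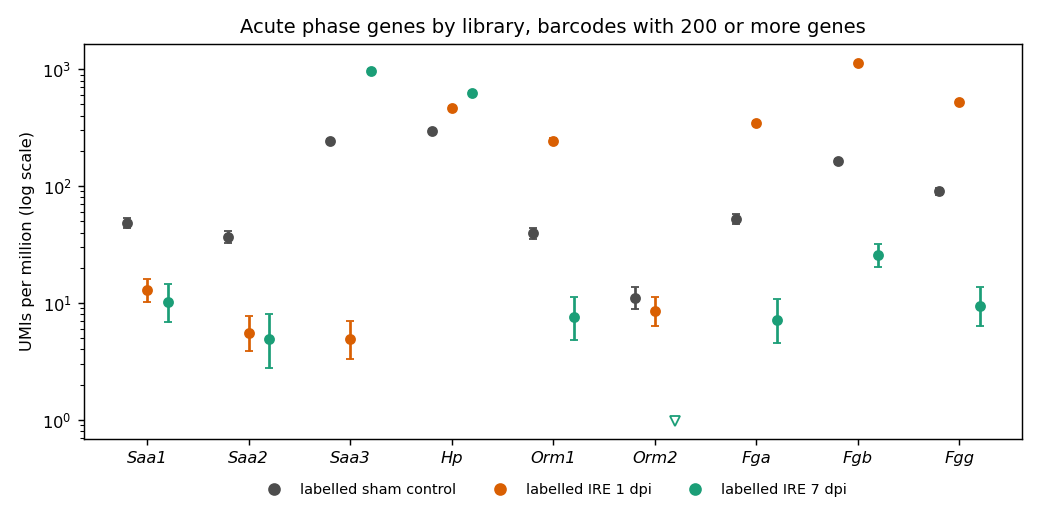
Level in CPM (log axis) of each of the 9 genes in the 3 libraries, with exact Poisson intervals, where an open triangle marks 0 UMIs drawn at the level of 3 counts. The fibrinogen chains and Orm1 peak at 1 dpi (Fgb at 1128), Saa3 dips to 4.91 and then reaches 964 at 7 dpi, and Saa1 and Saa2 are highest in control.

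Because the libraries held such different amounts of hepatocyte RNA, the 8 hepatocyte-type members were also set against the summed UMIs of the 20 hepatocyte markers. On this scale the direction turned for Orm1, fibrinogen and Hp. For each 1000 marker UMIs, fibrinogen had 141 UMIs in control, 55.0 at 1 dpi and 90.0 at 7 dpi, 2.56-fold lower at 1 dpi than in control (2.45 to 2.67). Orm1 had 18.1 in control and 6.74 at 1 dpi, 2.69-fold lower (2.38 to 3.04). The 1 dpi library thus had more fibrinogen and Orm1 transcripts in all, yet fewer for each hepatocyte marker transcript.

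The other hepatocyte-type members were lower still at 1 dpi on this scale. For each 1000 marker UMIs, Saa1 had 22.5 UMIs in control, 0.356 at 1 dpi and 21.5 at 7 dpi, and Saa2 had 16.9, 0.153 and 10.4. The 7 dpi values rested on 31 UMIs of Saa1 and 15 of Saa2 over 1445 marker UMIs, 348 of them of Apoc1. Together they were 77.4-fold lower at 1 dpi than in control (63.3 to 95.3). Hp was 10.8-fold lower (10.2 to 11.4) and Orm2 21.9-fold lower (15.4 to 31.4). The fold between control and 1 dpi therefore ran from 2.42 for Fgb to 111 for Saa2 across genes that are made by the same cell type. Part of the Hp on this scale lies in myeloid barcodes, as described below. The markers themselves include albumin, transthyretin and other negative acute phase genes, and whether they changed per hepatocyte cannot be told apart from the number of hepatocytes. Nor is the scale hepatocyte RNA alone. In control the marker Apoc1 gave 4411 of the 17363 marker UMIs, with 729 of them in the hepatocyte-like barcodes described below. Its ratio at 1 dpi was 5.16, against a median of 18.8 over the markers, and no run left it out. Within the barcodes under 200 genes, Saa1 and Saa2 together had a ratio of 0.0242 and fibrinogen of 0.429 between 1 dpi and control.

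**Figure D2:**
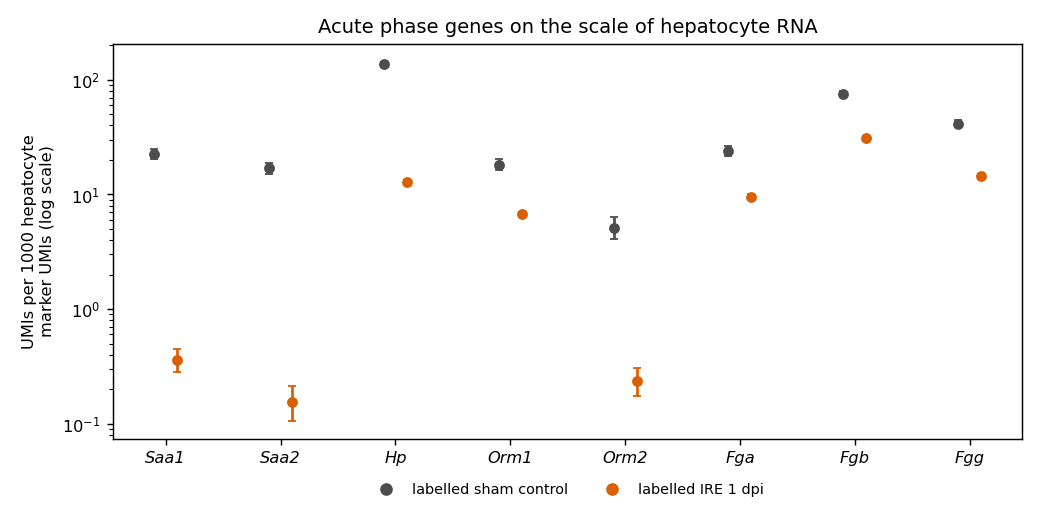
UMIs of each gene for each 1000 UMIs of the 20 hepatocyte markers (log axis) in the cells of the control and 1 dpi libraries, with Saa3 left out. For every gene drawn the 1 dpi library lies below control, by 2.42-fold for Fgb and 111-fold for Saa2.

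The same order was seen within hepatocyte-like barcodes, those with at least 10% of their UMIs in hepatocyte markers. They held 8577 of the 17363 marker UMIs of the control cells and 123177 of 221896 at 1 dpi. Their values are thus a part of the counts above and no separate check of them. This class held 21 barcodes in control, 285 at 1 dpi and 1 at 7 dpi, so that only control and 1 dpi were compared. The 10 genes with the highest fold in these barcodes over the rest lay outside the marker list. They were hepatocyte genes such as Mup20, Apoa4 and Cyp2a12 in control. At 1 dpi they included Slc3a1, Ces2a and Orm2, the last of which is 1 of the 9 members. In control 7 barcodes had a marker share of 8 to 10% and 9 one of 10 to 12%, and at 1 dpi 29 and 34 did. Depth differed, with a median of 3067 UMIs in control and 1273 at 1 dpi. Of the 8 members with at least 50 UMIs, 7 fell at 1 dpi, against 6.64% of 1793 genes, and Fgb was lower by less than 2-fold.

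Fgb had a UMI in 21 of 21 control and 270 of 285 1 dpi hepatocyte-like barcodes, at 12802 CPM (875 UMIs) and 6713 CPM (4298 UMIs). Its level per barcode ran from 1934 to 22976 CPM in control with a median of 8403, and from 0 to 25424 CPM at 1 dpi with a median of 5682, so that single barcodes overlapped widely. The summed fibrinogen chains were 2.03-fold lower at 1 dpi (1.92 to 2.14). Their ratio to control was 0.493 with all barcodes, 0.571 without barcodes that occur in several libraries and 0.286 when the class was drawn from 3 or more detected hepatocyte enzymes instead (49 and 1194 barcodes).

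Saa1 and Saa2 were near 0 in the 1 dpi hepatocyte-like barcodes. Saa1 had a UMI in 13 of 21 control barcodes but in 10 of 285 at 1 dpi, at 3219 CPM (220 UMIs) and 26.6 CPM (17 UMIs). Saa2 had a UMI in 12 of 21 and in 3 of 285, at 2326 CPM (159 UMIs) and 4.69 CPM (3 UMIs). Their sum was 178-fold lower at 1 dpi (113 to 294). In control these transcripts were unevenly held, since 12 barcodes had both, 8 had neither, and 3 barcodes held 258 of the 379 UMIs (68.1%). Depth went with this, at a median of 3830 UMIs in barcodes with both and 1450 in those with neither.

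The remaining members lay between these extremes in hepatocyte-like barcodes. Hp stood at 8237 CPM in control and 2391 CPM at 1 dpi, 3.44-fold lower (3.12 to 3.80), with a UMI in 20 of 21 and 231 of 285 barcodes. Orm1 stood at 3029 CPM in control and 1404 CPM at 1 dpi, 2.16-fold lower (1.85 to 2.51). Orm2 was 13.1-fold lower (8.33 to 20.8), with a UMI in 9 of 21 and 27 of 285 barcodes. Saa3 was close to absent from hepatocyte-like barcodes in both libraries, at 1 UMI in control and 3 UMIs at 1 dpi, which sets it apart from the other 8 members.

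**Figure D3:**
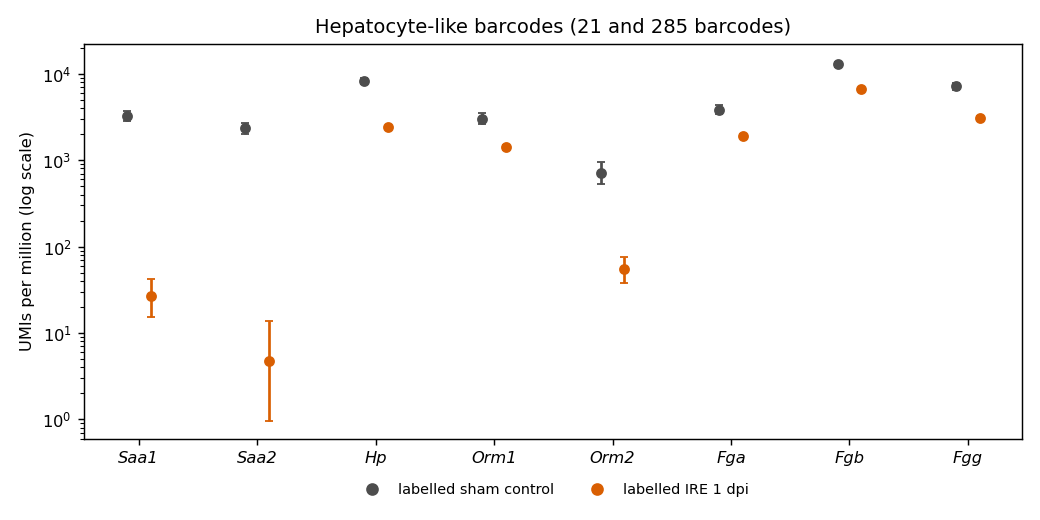
Level in CPM (log axis) of each gene but Saa3, summed over the 21 control and the 285 1 dpi hepatocyte-like barcodes, with exact Poisson intervals. The fibrinogen chains and Orm1 are 1.91 to 2.31-fold lower at 1 dpi, whereas Saa1 goes from 3219 to 26.6 and Saa2 from 2326 to 4.69.

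Saa3 lay in myeloid and mesenchymal barcodes. Classes were drawn from at least 3 different markers, none of which is an acute phase gene, and were not clustered. No class had more markers of another class than of its own among its 10 leading genes, although the 7 dpi monocyte-like barcodes were led by Ms4a4c and by interferon-induced genes such as Mx1 and Cxcl10 and had 1 marker of each kind. In control Saa3 stood at 502 CPM in monocyte-like, 382 CPM in wound-myeloid-like, 373 CPM in Kupffer-like, 327 CPM in mesenchymal-like and 224 CPM in neutrophil-like barcodes. It stood at 53.3 CPM in endothelial-like and 21.2 CPM in T and NK-like barcodes, below the 113 CPM of the barcodes under 200 genes. The intervals of the wound-myeloid-like class (237 to 584) included the levels of the monocyte-like, Kupffer-like and mesenchymal-like classes, so that these neighbours were not ordered by it. Of the 9-gene UMIs, Saa3 made up 60.9% in control Kupffer-like barcodes.

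At 7 dpi Saa3 rose in the monocyte-like class to 2084 CPM (619 UMIs, 1923 to 2255), the highest level of any class with at least 20 barcodes, and was 4.15 times control there (3.64 to 4.74). It was 1 of 2 members tested in that class to rise, against 14.2% of 2870 genes. In neutrophil-like barcodes it rose to 696 CPM (809 UMIs), 3.11 times control (2.36 to 4.16), as 1 of 3 members tested, against 22.4% of 3536 genes. The control value in that class rested on few barcodes, since 1 barcode held 20 of 55 UMIs, and the ratio was 4.70 without the barcode with the most UMIs in each library and 1.77 with at most 20% mitochondrial UMIs. Wound-myeloid-like barcodes, a class of Arg1, Ccl2 and Spp1 macrophages, stood at 1073 CPM at 7 dpi (746 UMIs), with 41 barcodes in control and 1198 at 7 dpi. Barcodes without a class held 723 of the 2950 Saa3 UMIs at 7 dpi, at 1115 CPM. Kupffer-like barcodes, the resident macrophages, stood at 275 CPM at 7 dpi, a ratio of 0.737 with an interval (0.518 to 1.02) that included no difference. Their 38 UMIs among 138325 were a lower level than the 535 among 1521054 of the 7 dpi barcodes under 200 genes. Of the 180 barcodes, 3 held 65.8% of the 38 UMIs. Those 3 had 4688 CPM of monocyte markers, beside 1558 CPM in Kupffer-like barcodes without Saa3, so whether Kupffer cells kept Saa3 cannot be told.

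The 1 dpi library held few Saa3 UMIs in every class. Kupffer-like barcodes, which were as many there (2361) as in control (2224), had 6 UMIs, or 3.76 CPM, against 824 UMIs in control, 99.0-fold lower (45.3 to 271). In this class 2 of 7 members fell at 1 dpi (Saa1 and Saa3), against 3.7% of 7189 genes. Neutrophil-like barcodes had 0 UMIs at 1 dpi, at least 2.58-fold lower than control at the floor of 3 counts, and the 5 UMIs of monocyte-like barcodes all lay in 1 of 44 barcodes.

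Saa3 was concentrated in a minority of control barcodes. In Kupffer-like barcodes 108 of 2224 carried it, and 38 barcodes with at least 5 UMIs held 88.1% of the 824 UMIs, with 59 in the highest. These 38 barcodes had 12919 CPM of Kupffer markers and 1716 CPM of monocyte markers, beside 17508 and 1485 CPM in the 2116 barcodes without Saa3. Both groups were drawn from the Kupffer-like class, so that the presence of Kupffer markers was given by the gate. Their level was lower in the barcodes that held most Saa3. In mesenchymal-like barcodes 30 of 420 carried Saa3, and 7 of them held 72.5% of the 153 UMIs. In monocyte-like barcodes it was more evenly spread, with 160 of 1056 in control and 170 of 483 at 7 dpi.

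After each barcode was thinned to 300 UMIs, Saa3 was detected in 9.53% of control monocyte-like barcodes (7.81 to 11.5) and in 27.0% at 7 dpi (22.9 to 31.3). In T and NK-like barcodes, lymphocytes that should lack it, the shares were 1.10% and 1.96%, at median depths of 610 and 438.5 UMIs before thinning, where the monocyte-like class had 590.5 and 530. The unthinned shares were 15.2% and 35.2% in monocyte-like barcodes. In neutrophil-like barcodes the thinned share was 2.49% in control and 9.42% at 7 dpi. Monocyte-like Saa3 was 4.42 times the level of the barcodes under 200 genes in control and 5.93 times at 7 dpi.

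Haptoglobin stood highest, outside hepatocyte-like barcodes, in neutrophil-like ones, with 1039 CPM in control (915 to 1175), 870 CPM at 1 dpi (587 to 1242) and 972 CPM at 7 dpi (916 to 1030). On the full UMI total these levels did not differ beyond counting error, and the 7 dpi ratio was 0.936 (0.816 to 1.08), or 1.37 (0.976 to 1.95) among barcodes with at least 500 genes. Mitochondrial genes took 25.1% of neutrophil-like UMIs in control and 4.96% at 7 dpi. Without them in the total the ratio was 0.738, below the interval of the main ratio. Monocyte-like barcodes stood at 842 CPM in control and 657 CPM at 7 dpi, a ratio of 0.780 (0.661 to 0.918). In Kupffer-like barcodes Hp was lower than in these classes but had a ratio of 1.82 at 7 dpi (1.14 to 2.78), from 95.4 to 174 CPM. Both values were below the barcodes under 200 genes, at 254 CPM in control and higher at 7 dpi, as given below. In control 1 barcode held 20 of the 211 UMIs. Kupffer-like barcodes without Saa3 had 1481 CPM of neutrophil markers in control and 11582 CPM at 7 dpi, and the source of their Hp was not tested. Barcodes without a class went from 194 to 455 CPM. Unlike Saa3, Hp was spread thinly, in 145 of 325 control neutrophil-like barcodes with at most 8 UMIs in any.

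Thinned to 300 UMIs, Hp was detected in 25.2% of neutrophil-like barcodes in control, 24.6% at 1 dpi and 24.2% at 7 dpi, and in 2.34%, 8.58% and 1.96% of T and NK-like barcodes. Control neutrophil-like Hp was 4.10 times the level of the barcodes under 200 genes, but at 7 dpi it was 0.996 times that level (0.921 to 1.08), and 1.31 times that of all barcodes. The 7 dpi barcodes under 200 genes, at 976 CPM of Hp, were the ones that carried more neutrophil marker UMIs than the cells did. Free RNA and neutrophils with few genes cannot be told apart there.

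Neutrophil-like barcodes with transcripts of the granule genes Camp, Ltf or Ngp, made by neutrophils still maturing, had 1191 CPM of Hp at 7 dpi (1018 to 1385, 242 barcodes), and those without had 942 CPM (883 to 1003, 2022 barcodes). Camp, Ltf and Ngp are themselves markers of the neutrophil gate, so that this split is tied to how barcodes entered the class. For Saa3 the levels were 543 CPM with granule transcripts (428 to 678) and 717 CPM without (666 to 771), and these intervals overlapped. At 7 dpi 48 of the 2264 neutrophil-like barcodes held 51.8% of the Saa3 UMIs, a clustering that the intervals do not cover. In control the granule-carrying barcodes had 0 of the 55 Saa3 UMIs, in 55 barcodes, but 4 of the 325 neutrophil-like barcodes held 70.9% of those UMIs. Saa3 was lower at 7 dpi in barcodes with the chemokines Cxcl3 or Ccl4 (631 CPM) than in those without (779 CPM). Barcodes with interferon-induced transcripts (Ifit1, Ifit3 or Isg15) likewise had less Saa3 at 7 dpi (555 CPM) than those without (746 CPM). Each of these groups was deeper than its counterpart, at a median of 512.5 against 436 UMIs for granule, 463 against 424.5 for chemokine and 462 against 440 for interferon transcripts, and the part of depth was not tested. In control the Hp intervals with and without granule transcripts overlapped (959 to 1610 and 852 to 1135 CPM), and at 1 dpi only 5 barcodes carried them, with 2 Hp UMIs. In monocyte-like barcodes at 7 dpi, Hp had a UMI in 38.2% of those with Saa3 and in 20.1% of those without, at median depths of 609.5 and 510 UMIs.

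**Figure D4:**
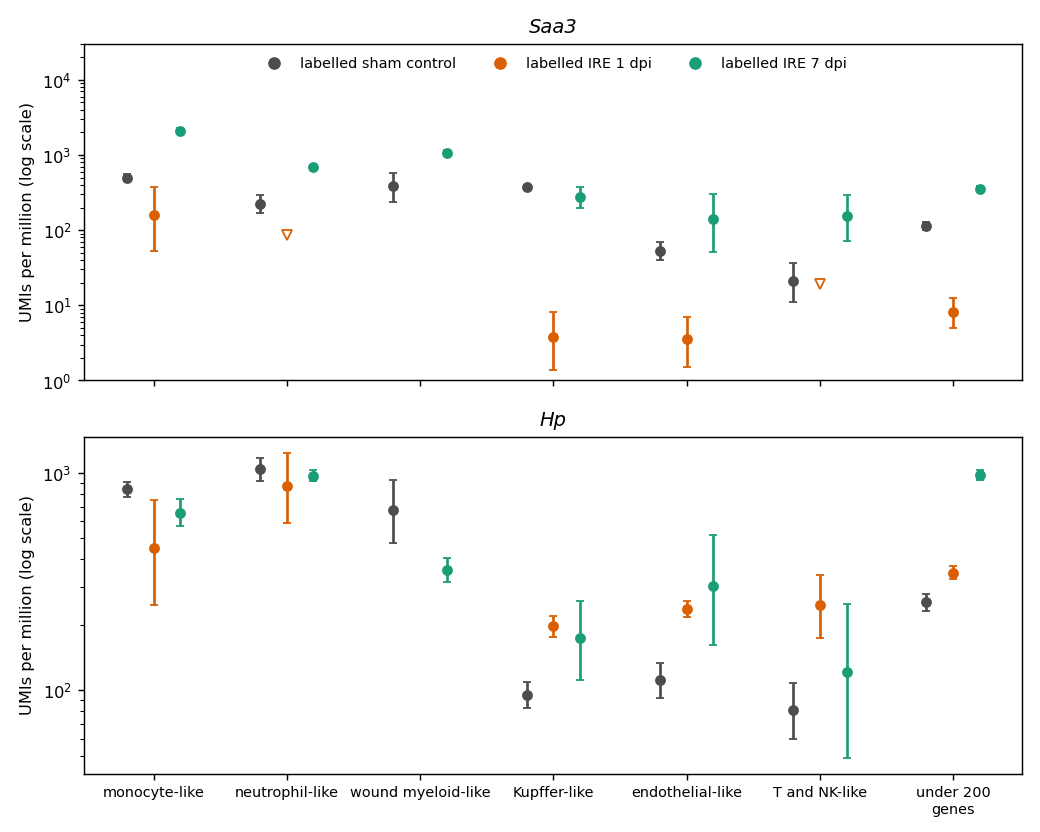
Level in CPM (log axis) of Saa3 and of Hp in 6 marker-gated classes and in barcodes under 200 genes, by library and for groups of at least 20 barcodes, with exact Poisson intervals, where open triangles mark 0 UMIs drawn at the level of 3 counts. Saa3 is highest in monocyte-like barcodes of 7 dpi (2084 CPM) and stands at 3.76 CPM in Kupffer-like barcodes of 1 dpi, while neutrophil-like Hp stays between 870 and 1039 CPM.

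The hepatocyte-type members were also counted in classes that do not make them. In Kupffer-like barcodes 5 of 7 members rose at 1 dpi (Hp, Orm1, Fga, Fgb and Fgg), against 8% of 7189 genes, with summed fibrinogen at 94.1 CPM in control and 748 CPM at 1 dpi. All 20 hepatocyte markers rose there as well. At 1 dpi Fgb was detected in 10.6% of Kupffer-like, 13.5% of endothelial-like, 13.8% of T and NK-like and 15.0% of B-like barcodes after thinning, beside 76.2% of hepatocyte-like ones. Lymphocytes, which do not make fibrinogen, thus had about the share of the other classes, and the source of these UMIs was not tested. In control the same classes had 1.14 to 1.72%.

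Fibrinogen in 1 dpi Kupffer-like barcodes was 0.580 times the CPM of the barcodes under 200 genes, and in endothelial-like ones 0.678 times. When the profile of the barcodes under 200 genes was scaled to the hepatocyte marker UMIs of a class, the observed counts at 1 dpi were 0.839 times the expected ones for Fgb in Kupffer-like and 0.963 times in endothelial-like barcodes. For Hp in neutrophil-like barcodes the same quotient was 2.94 at 1 dpi and for Saa3 in control monocyte-like barcodes 9.83. In these Kupffer-like and endothelial-like barcodes of 1 dpi, fibrinogen was at or under the level of the barcodes under 200 genes, whereas neutrophil-like Hp at 1 dpi and monocyte-like Saa3 in control were above it. The 1 dpi endothelial-like barcodes were led by the platelet genes Gp9, Ppbp and Pf4, and whether platelets bear on their fibrinogen counts was not tested.

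The make-up of the acute phase transcripts differed accordingly. Fibrinogen took 57.5% of the 9-gene UMIs in control hepatocyte-like barcodes and 75.1% at 1 dpi. At 1 dpi it took much the same share of Kupffer-like barcodes (70.7%) and of the barcodes under 200 genes (69.8%). Saa3 took 74.6% in 7 dpi monocyte-like barcodes, and Hp 68.9% in control and 55.8% in 7 dpi neutrophil-like barcodes. Saa1 and Saa2 together took 13.4% in control hepatocyte-like barcodes and 0.200% at 1 dpi.

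**Figure D5:**
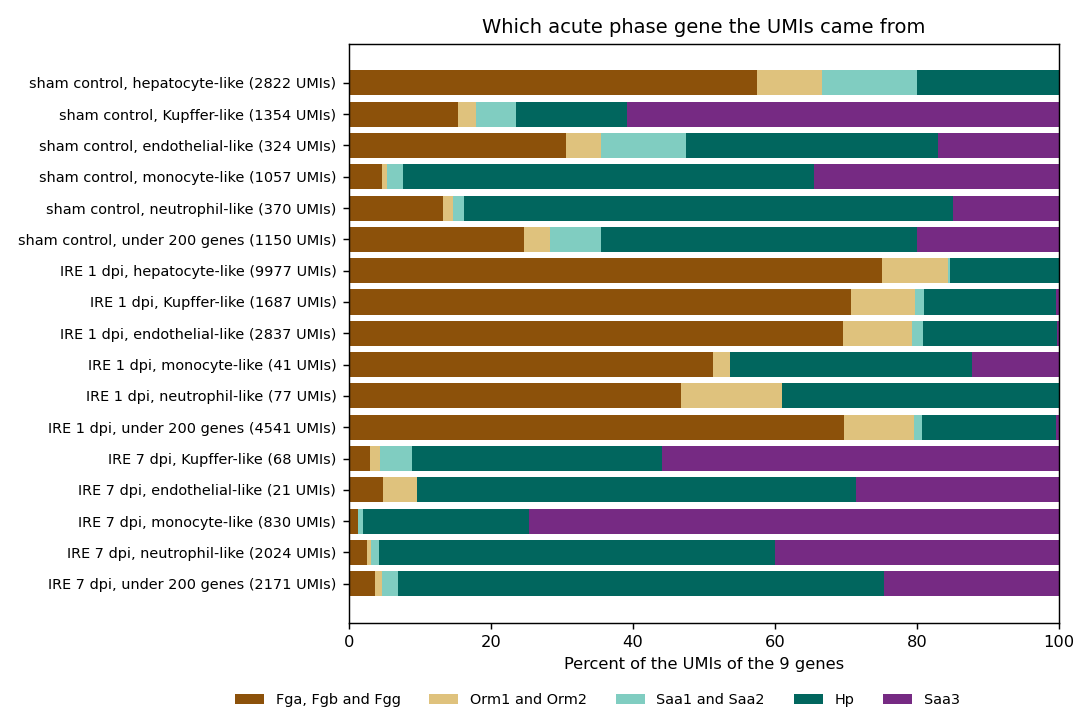
Share in percent of the summed UMIs of the 9 genes taken by Saa1 with Saa2, Saa3, Hp, Orm1 with Orm2 and the fibrinogen chains, by class and library. Fibrinogen fills 57.5 to 75.1% of hepatocyte-like barcodes, Saa3 74.6% of 7 dpi monocyte-like barcodes and Hp 68.9% of control neutrophil-like barcodes.

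Within families the proportions were steadier than the levels. Fgb made up 53.4% of fibrinogen UMIs in control (51.4 to 55.4), 56.5% at 1 dpi (55.6 to 57.3) and 60.8% at 7 dpi (51.8 to 69.2). Fga took 17.0, 17.4 and 16.9% in the same order, intervals of which overlapped, and Fgg 29.6, 26.1 and 22.3%. Saa1 took 57.0% of Saa1 and Saa2 in control (53.2 to 60.8) and 69.9% at 1 dpi (60.6 to 78.2). Orm2 departed from this, with 22.0% of the orosomucoid pair in control (18.1 to 26.4) and 3.36% at 1 dpi (2.52 to 4.38), and with 19.1% and 3.75% in hepatocyte-like barcodes.

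Near-identical copies limit these shares. Of the windows of 50 bases in the last 300 bases of the Orm1 transcript, 58.6% also stood in Orm2, so that counts of this pair are uncertain. For Saa1 against Saa2 the figure was 9.56%, for Saa1 against Saa3 it was 0, and Fga with Fgb and Fgb with Fgg shared 0 windows. Over the whole transcript 1.61% of the Saa1 windows also stood in Saa3. Saa2 was not set against Saa3, and the part of shared sequence in the contrast of Saa3 with Saa1 and Saa2 was not tested.

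Other genes of the response were counted from lists written from general knowledge. Of 25 other positive acute phase genes, 23 had at least 50 UMIs at 1 dpi, where 16 rose and 2 fell (Lcn2 and Il1rn), with a median ratio of 4.51. Over all genes 12.2% rose and 5.86% fell at 1 dpi. The most abundant of the risers was the complement component C3, at 311 CPM in control, 889 CPM at 1 dpi and 96.1 CPM at 7 dpi, and ceruloplasmin (Cp), a copper carrier, stood at 91.7, 554 and 36.9 CPM. Metallothionein 1 (Mt1) stood at 472 CPM in control, 500 CPM at 1 dpi and 935 CPM at 7 dpi. Negative acute phase genes rose more, 9 of 10 with a median ratio of 18.8, as for Alb at 533 CPM in control and 11571 CPM at 1 dpi. At 1 dpi positive and negative genes thus both rose with the hepatocyte markers in the library total.

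Within hepatocyte-like barcodes the 2 lists parted. Of 21 other positive genes tested, 11 fell at 1 dpi, with a median ratio of 0.485, against 1.01 over all genes tested. In this class 6.64% of all genes fell. Mt1, a metal-binding protein gene induced in the acute phase, stood at 9232 CPM in control and 1036 CPM at 1 dpi. Of the 10 negative genes 0 fell, with a median ratio of 1.34, and Cyp2e1 alone passed 2-fold upward. The share of all genes that rose in this class is not given. Alb, Ttr, Rbp4, Apoa1, Apoa2, Ahsg and Cyp2e1 are themselves markers that define the class, so that their ratios are tied to the choice of barcodes. The marker share of the class was 12.5% in control and 19.2% at 1 dpi. The negative genes outside the marker list had ratios of 0.873 (Trf), 1.21 (Serpina6) and 1.23 (Igf1). The other 10 positive genes did not pass 2-fold, among them Cp at 1902 CPM in control and 1921 CPM at 1 dpi.

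At 7 dpi 13 of 22 other positive genes tested fell, Lrg1, Lcn2 and Il1rn were among those that rose, and 9 of 9 negative genes fell, where the median ratio over all genes was 0.862. Of all genes 21.8% fell at 7 dpi. Among the ligands that drive the response, 3 of 5 tested rose at 7 dpi (Il1b, Tnf and Osm), and 0 of 5 rose at 1 dpi, when Osm and Ifng fell. Over all genes 8.79% rose at 7 dpi and 12.2% at 1 dpi. Il1b stood at 125 CPM in control, 96.3 CPM at 1 dpi and 1687 CPM at 7 dpi. Oncostatin M (Osm), a cytokine of the interleukin 6 family, stood at 13.1, 3.93 and 320 CPM in that order. Tnf stood at 25.3, 18.0 and 70.6 CPM.

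Of the receptor and signaling genes, Socs3 (a feedback inhibitor of the gp130 pathway) and Cebpb fell at 1 dpi and Hnf4a rose, of 13 tested, where 5.86% of all genes fell and 12.2% rose. At 7 dpi Socs3, Nfkbia and Nfkbiz rose and Il6st, Osmr, Il1r1 and Cebpa fell, of 12 tested, where 8.79% of all genes rose and 21.8% fell. Il6st, which encodes gp130, stood at 166 CPM in control, 307 CPM at 1 dpi and 47.4 CPM at 7 dpi, Jak1 at 407, 577 and 309 CPM and Nfkbia at 456, 380 and 1366 CPM. Of 8 receptors and binding partners of acute phase proteins, Cd163, the haptoglobin-hemoglobin receptor of macrophages, rose at 1 dpi (117 CPM in control, 248 CPM at 1 dpi) and fell at 7 dpi (35.6 CPM). At 1 dpi Itgam and Ngp fell, and 6 of 8 rose at 7 dpi, among them the fibrinogen-binding integrin chain Itgam (174 CPM in control, 29.8 CPM at 1 dpi, 942 CPM at 7 dpi) and its partner Itgb2 (139, 82.0 and 371 CPM).

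The genes most like each pattern were found over 26 sums by class and library, on the scale of log2(CPM + 10). These points share libraries and depth, so that the correlations are descriptions. The profile of Saa3 was most like those of F13a1 (Pearson's r of 0.915), Ccl9 (0.883), Emilin2 (0.874), Ms4a6d (0.858) and Clec4e (0.855), of which F13a1 was itself a monocyte marker. That of Hp was most like Ass1 (0.767, a hepatocyte marker), F5 (0.762), Pygl (0.746), F10 (0.738) and C1rl (0.734). That of summed fibrinogen was most like Apoc4 (0.974), Pck1 (0.963), Serpinc1 (0.962), Fbp1 (0.960) and Gc (0.959). Among the members, Saa3 had an r of 0.114 with Hp and of 0.0100 with Saa1 despite the shared family name.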

How the data were processed

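Digested liver punches were profiled by Drop-seq in 3 libraries. The authors aligned the reads with STAR (2.5.2a by the submitters' notes), and the deposited headers name the DigitalExpression step of Drop-seq tools, run on sense-strand reads of coding and untranslated bases. The authors deposited the resulting UMI counts without normalization. The notes list build hg19 for mouse libraries, so that no coordinates were taken from the files. The headers name a minimum of 200 genes, yet barcodes with as few as 11 were present.

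Python 3.11.15 with scipy 1.17.1 was used. UMIs were summed per library and class over barcodes with at least 200 genes and divided by their total. Sums have exact Poisson, shares Clopper-Pearson and ratios conditional binomial intervals. A class needed 3 different markers and a lead of at least 1 marker over the next class. The hepatocyte class needed 10% of UMIs in 20 markers, a threshold set after the distribution was seen. Classes covered 64.2 to 77.2% of cells. No doublet caller was run, and doublets were kept. The calculation of ratios was tested on simulated data.

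Members and gene lists were chosen with earlier results of these data known. Named were all 9 members and, of each list, the counts past 2-fold with values for the 3 genes with the most UMIs. Genes that make up the counts and the neutrophil granule and chemokine genes were named after their values were seen. For the like patterns the 5 highest correlations were taken among genes with at least 200 UMIs, over sums of at least 20000 UMIs. Alternatives varied barcode filters, denominators (with edgeR 4.0.16 and DESeq2 1.42.0 size factors), gates, free RNA profiles and thinning. The value of 1 listed gene is not reported here.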

Additional observations from a re-analysis of the deposited data

Results flagged for a closer look

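For 5 of the 9 genes the ratios to control passed 2-fold in opposite directions 1 day and 7 days after IRE. The share of all genes that did so was not counted. Over all genes 12.2% rose and 5.86% fell at 1 dpi, and 8.79% rose and 21.8% fell at 7 dpi. Saa3 had a ratio to control of 0.0202 at 1 dpi and 3.96 at 7 dpi. Orm1 had ratios of 6.23 and 0.191, Fga of 6.70 and 0.139, Fgb of 6.93 and 0.159, and Fgg of 5.79 and 0.105, in the same order. Both ratios of a gene share the control library, there is 1 library at each time, and the difference between the times was not tested. For Orm1 and the fibrinogen chains the share of hepatocyte markers in the cells moved the same way, from 0.217% in control to 3.63% at 1 dpi and 0.0472% at 7 dpi. All 20 of these markers rose at 1 dpi, and 17 of the 19 tested fell at 7 dpi.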

How the results depend on the processing

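With 1 library per condition no setting could be checked against replicates, and no paired analysis was possible because each condition has 1 library. Beyond the scale of hepatocyte markers, on which Orm1, fibrinogen and Hp turned at 1 dpi, no ratio that passed 2-fold turned its direction under an alternative run, whereas Hp in neutrophil-like barcodes at 7 dpi crossed 1 against control and against the reference barcodes, and 79 values for the comparisons stayed close to the reported one while 33 moved, as follows. The number of members 2-fold higher at 7 dpi was 1 with at least 500 genes, with at most 20% mitochondrial UMIs, with a total without mitochondrial genes and without neutrophil-like and monocyte-like barcodes, since Hp then stayed under 2-fold. Fibrinogen in hepatocyte-like barcodes at 1 dpi over control was 0.571 without shared barcodes, 0.537 without the barcode with the most UMIs and 0.286 with the enzyme gate. Saa3 at 7 dpi over control in monocyte-like barcodes was 5.07 with at least 500 genes and 3.32 without mitochondrial genes, and in neutrophil-like barcodes 5.18 with at least 500 genes, 1.77 with at most 20% mitochondrial UMIs and 4.70 without the top barcode. Hp in neutrophil-like barcodes at 7 dpi over control was 1.37 with at least 500 genes and 0.738 without mitochondrial genes.

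Against barcodes under 100 genes and against all barcodes, monocyte-like Saa3 was 18.8 and 2.31 times the reference in control and 7.36 and 2.74 times at 7 dpi, control Kupffer-like Saa3 was 14.0 and 1.72 times, and 7 dpi neutrophil-like Hp was 1.23 and 1.31 times. Control neutrophil-like Hp was 7.78 times the barcodes under 100 genes. Unthinned shares were 15.2% and 35.2% for Saa3 in monocyte-like barcodes and 44.6% and 33.2% for Hp in neutrophil-like barcodes (control and 7 dpi), and the last was 16.9% when thinned to 200. Per hepatocyte marker UMI at 1 dpi over control, fibrinogen was 0.433 without Alb and 0.429 in barcodes under 200 genes, Hp 0.103 and 0.0639, and Saa1 with Saa2 0.0242 in barcodes under 200 genes. The cause of these shifts was not tested, beyond fewer barcodes or UMIs where the setting removes them.

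TMM and DESeq2 size factors moved all log2 ratios at 7 dpi by 0.19 and 0.25, and leaving out mitochondrial genes lowered them (fell by 0.27). Settings on shared barcodes, the top barcode, the enzyme gate, the 5% and 20% marker share and the removal of neutrophil-like and monocyte-like barcodes were added after the data were seen. For hepatocyte-like barcodes, the 20% share, 1 more marker and a marker share under the median gave no value. Depth limits Saa2 at 1 dpi in hepatocyte-like barcodes (3 UMIs) and hepatocyte-type genes at 7 dpi, where the class held 1 barcode.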
